A study of Mus musculus with 12 samples.

Results

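The genes described here are 31 genes of glycolysis and of the response to low oxygen, chosen by symbol. They comprise the enzymes that turn glucose into lactate, glucose and lactate carriers, regulators of glycolytic flux, the oxygen-sensitive transcription factors Hif1a and Epas1, and other known targets of these factors. Where several probe sets named a gene, the brightest by its mean on the 12 arrays stood for it, and 29 of the 31 could be read in this way among 18193 genes in all. Gpi1 and Eno1 were named by no probe set with a single gene and have no value here. Of the 29, 12 are glycolytic enzymes, 3 carriers, 3 flux regulators, 2 hypoxia factors and 9 other hypoxia targets.

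The arrays compared STHdhQ111/Q111 striatal cells, which derive from knock-in mouse embryos with mutant huntingtin, and STHdhQ7/Q7 striatal cells, which derive from wild-type embryos. The 4 groups were Q111 cells after 6 h at 42 °C, Q111 cells kept at 33 °C, Q7 cells after 6 h at 42 °C and Q7 cells kept at 33 °C, with 3 arrays each. All cells were grown in serum-containing medium with G418, and the labels give no low-oxygen treatment. Each genotype was represented by 1 line, so genotype and line cannot be told apart, and as the labels do not say whether the arrays of a group come from separate cultures, p-values cover the spread among these arrays alone, which may be technical. The series addresses how mutant huntingtin alters the action of the heat shock factor HSF1, and these arrays give the mRNA side of that question.

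Glycolysis splits glucose in the cytosol and yields pyruvate, which is reduced to lactate when oxygen is short or passed on to the mitochondria. In low oxygen the factors HIF-1alpha (Hif1a) and HIF-2alpha (Epas1) escape degradation, which the prolyl hydroxylases Egln1 and Egln3 otherwise initiate, and switch on glucose carriers, most glycolytic enzymes, the angiogenic factor Vegfa and many further genes. In the brain, neurons take up glucose mainly through Slc2a3 (GLUT3), while Slc2a1 (GLUT1) serves the blood-brain barrier and glia.

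Treatment, line and tissue were checked against known genes. Hspa1a, the heat-inducible HSP70, averaged 12.43 ± 0.26 log2 units in heat-shocked Q111 cells, against 5.95 ± 0.33 in Q111 cells at 33 °C, and 11.45 ± 0.04 in heat-shocked Q7 cells, against 5.96 ± 0.37 in Q7 cells at 33 °C (SD, n = 3 each). Htt, whose level does not read the repeat length, averaged 7.58 ± 0.25 in Q111 cells and 8.87 ± 0.10 in Q7 cells at 33 °C (SD, n = 3 each). Of 8 measured markers of striatal projection neurons, 5 had a mean over all arrays above background range. Foxp1 (10.50 to 11.68) and Rgs9 (5.49 to 5.70) were above it in all 4 groups, and Bcl11b only in the heat-shocked groups (6.17 in Q111 and 5.36 in Q7 cells). Ppp1r1b and Drd2 lay within it in all 4 groups and Drd1 in both groups at 33 °C. Penk was above it only in Q7 cells at 33 °C, and Tac1 only in Q7 cells. Background range ends at 5.14 log2 units, the highest value of 27 probe sets against bacterial transcripts absent from the samples. The 3 to 5 prime difference of the actin control probe sets, a sign of RNA integrity, was 1.25 ± 0.23 in Q111 cells after heat shock, against 0.72 ± 0.36 at 33 °C, and 1.48 ± 0.12 in Q7 cells after heat shock, against 0.54 ± 0.16 at 33 °C (SD, n = 3 each, log2). It moved with heat shock, and its part in the heat shock results was not tested beyond the covariate fits given below. In total RNA, fewer cells of a type and less RNA per cell cannot be told apart either.

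The promoters of 6 members are shown because they stand for the patterns described below: Slc2a1 and Hk2, which fell in both lines, Ldha, which did not pass the test, Kdm3a and Vegfa, which rose in both, and Adm, which separated the lines. The windows are the 250 bases before the RefSeq start on GRCm38.p6, 5′ to 3′ on the gene's strand, and capitals mark ACGTG or GCGTG, the cores of hypoxia response elements, on either strand. They lie at chr4:119108495-119108744 (+ strand), chr6:82774455-82774704 (- strand), chr7:46845554-46845803 (+ strand), chr6:71632918-71633167 (- strand), chr17:46032378-46032627 (- strand) and chr7:110627407-110627656 (+ strand). Of these, the Ldha window lies inside the full span of its gene (chr7:46842274-46855627), and the Kdm3a window overlaps that of its gene (chr6:71588970-71632990).
Slc2a1: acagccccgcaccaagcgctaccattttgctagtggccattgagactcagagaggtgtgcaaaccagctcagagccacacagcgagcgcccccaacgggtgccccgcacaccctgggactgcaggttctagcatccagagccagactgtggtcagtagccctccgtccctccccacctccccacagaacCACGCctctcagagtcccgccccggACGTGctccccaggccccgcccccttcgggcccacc
Hk2: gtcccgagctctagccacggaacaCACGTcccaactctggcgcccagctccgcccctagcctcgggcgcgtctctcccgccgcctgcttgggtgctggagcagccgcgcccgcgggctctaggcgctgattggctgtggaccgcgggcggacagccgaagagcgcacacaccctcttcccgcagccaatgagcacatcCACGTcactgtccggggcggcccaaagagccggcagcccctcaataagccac
Ldha: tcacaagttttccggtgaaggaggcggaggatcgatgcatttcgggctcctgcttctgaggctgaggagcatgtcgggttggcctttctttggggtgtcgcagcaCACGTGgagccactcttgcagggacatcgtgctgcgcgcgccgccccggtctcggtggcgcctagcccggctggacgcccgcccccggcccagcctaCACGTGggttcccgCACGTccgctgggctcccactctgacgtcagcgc
Kdm3a: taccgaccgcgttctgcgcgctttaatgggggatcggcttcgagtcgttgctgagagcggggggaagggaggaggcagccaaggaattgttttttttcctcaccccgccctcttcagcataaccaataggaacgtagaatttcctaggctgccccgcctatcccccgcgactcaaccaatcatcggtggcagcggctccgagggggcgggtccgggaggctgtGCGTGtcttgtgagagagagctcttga
Vegfa: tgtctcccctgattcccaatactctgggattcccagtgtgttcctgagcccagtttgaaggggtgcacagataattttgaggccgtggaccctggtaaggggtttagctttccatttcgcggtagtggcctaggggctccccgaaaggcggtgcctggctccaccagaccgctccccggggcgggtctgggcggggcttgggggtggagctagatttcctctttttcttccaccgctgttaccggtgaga
Adm: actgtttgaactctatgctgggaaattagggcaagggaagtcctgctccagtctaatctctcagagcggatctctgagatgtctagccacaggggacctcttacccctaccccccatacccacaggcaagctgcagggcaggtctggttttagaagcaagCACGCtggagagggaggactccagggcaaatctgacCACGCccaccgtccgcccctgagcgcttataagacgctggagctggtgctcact
ACGTG stood in the windows of 14 of 28 matched members (50.0%), against 16.6% of 27025 genes, and ACGTG or GCGTG in 21 of 28 (75.0%) against 38.6%. By role, ACGTG was found in 5 of 14 enzymes, 2 of 2 carriers and 5 of 8 other hypoxia targets. The Ldha window held 5 occurrences and the Hk2 window 2, counting both strands, so that each CACGTG in the Ldha window counted once on each strand. The Kdm3a window held GCGTG once, the Adm window held GCGTG at 2 places, and the Vegfa window held neither. The spaced heat shock element core, GAANNTTC or TTCNNGAA, stood in 2 of 28 members (7.1%), Pfkl and Eno2, against 12.9% of genes. These matches describe letters in a window and say nothing of binding. Slc2a3, Epas1 and Ndrg1 are named only.

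On the deposited scale many of these genes fell with heat shock in each line, and Vegfa and Kdm3a rose. In Q111 cells 15 of 29 members fell and 2 rose, against 28.2% and 20.0% of all 18193 genes (limma, adjusted p under 0.05), with a median log2 change of -0.49 against -0.02 for all genes. In Q7 cells 14 of 29 fell and 2 rose, against 18.1% and 12.3% of all genes, with a median of -0.52 against 0.003. Among genes above background range the shares that fell were 39.4% of genes in Q111 cells and 24.7% in Q7 cells, against 13 of 26 (50.0%) and 12 of 26 (46.2%) of the members. The heat-shocked arrays lay wholly below those at 33 °C for 18 members in the Q111 line, against 30.5% of all genes, and wholly above for 2, against 24.2%. In the Q7 line they lay below for 17, against 27.6%, and above for 2, against 21.2%.

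These directions depend on how the arrays are scaled. Subtracting from every array the median level of its genes (centring) moved the median change of all genes to 0.71 in Q111 cells and 0.35 in Q7 cells. It then left 4 members lower (Hk1, Hk2, Pfkl and Slc2a1) and 11 higher in Q111 cells, against 12.9% of all genes lower and 60.4% higher. In Q7 cells it left 8 lower and 3 higher, against 11.3% and 26.6% of all genes. With the actin difference as a covariate, 5 fell and 2 rose in Q111 cells, against 16.4% and 7.71% of all genes, and 0 fell and 1 rose in Q7 cells, against 1.01% and 1.39%. In Q111 cells the share of members that fell, 4 or 5 of 29, was thus near that of all genes in both of these settings. The calls that passed in every setting tried were Hk1, Hk2 and Slc2a1, which fell, and Kdm3a and Vegfa, which rose, in Q111 cells, and Kdm3a in Q7 cells. Markers of other cell types also moved with heat shock. Of 6 fibroblast markers 4 fell in each line and 1 rose (Dcn in Q111 cells, Col1a2 in Q7 cells), with summed log2 levels of 56.8 to 59.4 in heat-shocked Q111 cells, against 62.0 at 33 °C, and 53.5 to 53.7 in heat-shocked Q7 cells, against 56.2 to 56.9 at 33 °C. In Q111 cells 3 of 6 neuronal markers rose (sums of 38.9 to 40.4 after heat shock, against 32.2 to 36.2). There 3 of 8 striatal markers also rose, while 1 fell (45.8 to 47.2, against 41.8 to 42.6). Of all genes, 20.0% rose and 28.2% fell in Q111 cells, and 18.1% fell in Q7 cells. Snap25, Syt1, Stmn2, Drd1, Tac1 and Bcl11b, which rose, had means in background range in Q111 cells at 33 °C. Map2, Tubb3 and Rbfox3 had -0.68, -0.44 and 0.19, without a call. The part of these markers in the results was not tested.

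Both glucose carriers fell after heat shock. Slc2a1, the widespread glucose carrier, had levels of 11.26, 11.28 and 11.06 log2 units in heat-shocked Q111 cells, against 12.44, 12.36 and 12.51 at 33 °C. In Q7 cells it had 11.62, 11.50 and 11.65 after heat shock, against 12.74, 12.73 and 12.80 at 33 °C. Every heat-shocked array lay more than 1 log2 unit below every array at 33 °C of its line. The change was -1.24 (SE 0.12, limma adjusted p = 2.01e-05) in Q111 cells and -1.16 (SE 0.12, adjusted p = 4.52e-05) in Q7 cells. Centred, the values were -0.51 in Q111 cells and -0.81 in Q7 cells, both past the threshold. Slc2a3, the neuronal carrier, fell by 1.02 (adjusted p = 0.0132) in Q111 cells and fell by 1.37 (adjusted p = 0.00388) in Q7 cells, and without the first untreated Q111 array the Q111 value missed the threshold (adjusted p = 0.0531), as it did after centring (-0.29, adjusted p = 0.379). Slc16a3, the lactate exporter MCT4, fell by 0.99 in Q7 cells (adjusted p = 0.014), where all heat-shocked arrays and 1 of those at 33 °C lay in background range, but not without the second heat-shocked Q7 array (adjusted p = 0.0534), and its change of -0.29 in Q111 cells did not pass the test.

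The early enzymes of glycolysis had lower median changes than the late ones. The 7 enzymes from hexokinase to triose phosphate isomerase had a median change of -1.21 in Q111 cells, where 5 fell, and of -0.91 in Q7 cells, where 6 fell. The 5 enzymes from phosphoglycerate kinase to lactate dehydrogenase had medians of -0.25, with 2 falling, and -0.15, with 1 falling. Of all genes, 28.2% fell in Q111 cells and 18.1% in Q7 cells. All these enzymes had means above background range, where 39.4% and 24.7% of genes fell. The late shares, 40.0% and 20.0%, were near the latter. Centred, these medians were -0.48 and -0.56 for the early enzymes and 0.48 and 0.21 for the late ones, in Q111 and Q7 cells in that order, so the sign of the late enzymes flipped while the early enzymes stayed the lower. The changes overlapped, at -1.70 to 0.02 (early) and -1.06 to 0.17 (late) in Q111 cells and -2.34 to -0.37 and -0.59 to 0.28 in Q7 cells. Signal differed too, with mean levels of 9.10 to 9.77 for Hk1, Hk2, Pfkl and Pfkm and 12.50 to 12.76 for Pkm, Pgam1, Pgk1 and Ldha. The early Aldoa (12.84) and Tpi1 (12.10) were bright, and the early Pfkp (10.33) and late Eno2 (10.79) dimmer. Neither the gap between the lists nor the part of signal was tested.

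Hk2, the inducible hexokinase that commits glucose to the pathway, had levels of 8.46, 7.81 and 7.38 in heat-shocked Q111 cells, against 9.75, 9.63 and 9.37 at 33 °C, and 8.47, 8.04 and 8.38 in heat-shocked Q7 cells, against 10.95, 10.68 and 10.28 at 33 °C. The groups of each line did not overlap. Hk2 fell by 1.70 (SE 0.26, adjusted p = 0.000389) in Q111 cells and fell by 2.34 (SE 0.26, adjusted p = 8.31e-05) in Q7 cells, the largest fall among the members in each line. Hk1, the constitutive hexokinase, had 8.68, 8.10 and 8.03 in heat-shocked Q111 cells, against 9.56, 10.20 and 9.57 at 33 °C, and 9.49, 9.14 and 9.40 in heat-shocked Q7 cells, against 10.30, 10.63 and 10.00 at 33 °C. It fell by 1.50 (adjusted p = 0.000458) and fell by 0.97 (adjusted p = 0.00968), in Q111 and Q7 cells in that order, with no overlap.

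Phosphofructokinase, the main control point of the pathway, exists in 3 isoforms, of which Pfkl and Pfkm fell in both lines. Pfkl, the liver type, fell by 1.34 in Q111 cells (adjusted p = 0.00402) and fell by 1.43 in Q7 cells (adjusted p = 0.00418), and Pfkm, the muscle type, fell by 1.21 (adjusted p = 0.00294) and fell by 0.91 (adjusted p = 0.0194). The Pfkm call in Q7 cells was lost without the second heat-shocked array (adjusted p = 0.0674), the second array at 33 °C (0.0721) or the third (0.0609). Pfkp, the platelet type, had changes of 0.02 and -0.37, neither past the threshold, and its dimmer probe sets differed from it, at -1.43 and 0.80 in Q111 cells. Aldoa, which splits fructose bisphosphate, fell by 0.58 (adjusted p = 0.00244) in Q111 cells and fell by 0.60 (adjusted p = 0.00299) in Q7 cells, and after centring its Q111 change reversed to 0.14 (adjusted p = 0.37). Tpi1, which interconverts the resulting trioses, fell by 0.52 in Q7 cells (adjusted p = 0.0127, and 0.0576 without the third heat-shocked array) and had a change of -0.25 in Q111 cells (adjusted p = 0.144).

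Of the later enzymes, Pkm passed the test in both lines and Eno2 in Q111 cells. Pgk1, the first ATP-yielding enzyme, had 12.90, 12.85 and 12.90 in heat-shocked Q111 cells, against 12.61, 12.70 and 12.85 at 33 °C. In Q7 cells it had 12.75, 12.72 and 12.67 after heat shock, against 12.69, 12.74 and 12.77 at 33 °C. These groups met or overlapped in both lines, and neither change passed the test, though its other probe sets rose in Q111 cells by 0.53 and 0.72 (adjusted p over all probe sets 0.0185 and 0.00232). Pgam1 had changes of -0.03 and -0.15 and Ldha, which makes lactate, of -0.25 (adjusted p = 0.119) and -0.22 (adjusted p = 0.203), in Q111 and Q7 cells in that order; centred, Ldha in Q111 cells passed in the other direction (0.48, adjusted p = 0.0075). Pkm, which makes pyruvate, fell by 0.49 (adjusted p = 0.00776) and fell by 0.59 (adjusted p = 0.004), and centring reversed the Q111 value to 0.24 (adjusted p = 0.155).

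**Figure D1:**
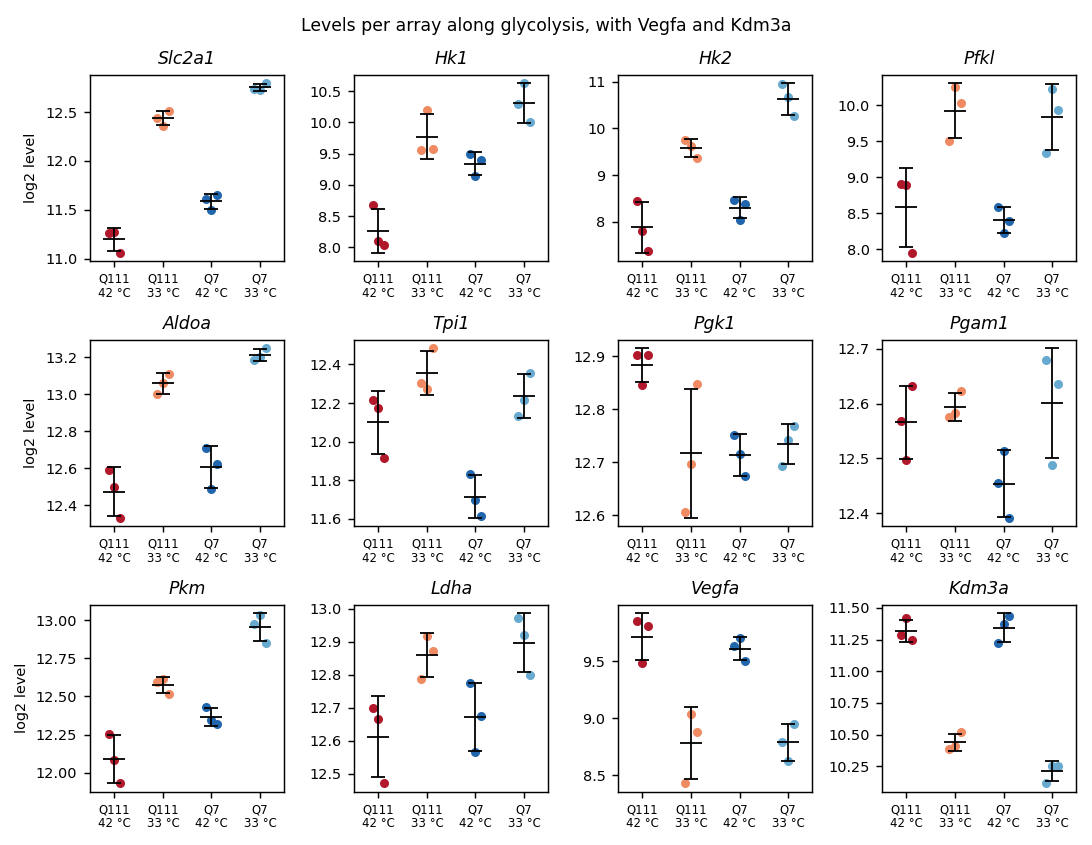
Log2 RMA levels of glycolysis members on each array, by group, with points for arrays and bars for the mean ± SD (n = 3); axes do not start at 0 and differ between panels. Slc2a1 and Hk2 sit lower on every heat-shocked array than on every array at 33 °C of the same line, while Pgk1 does not separate.

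Eno2, the neuronal enolase, was the enzyme whose heat response differed between the lines. It had 10.34, 10.17 and 10.46 in heat-shocked Q111 cells, against 11.59, 11.36 and 11.20 at 33 °C, with no overlap. In Q7 cells it had 10.64, 10.94 and 11.02 after heat shock, against 10.56, 10.31 and 10.91 at 33 °C, which overlapped. It fell by 1.06 in Q111 cells (SE 0.18, adjusted p = 0.000748) and had a change of 0.28 in Q7 cells (SE 0.18, adjusted p = 0.296). The difference of the effects was -1.34 (SE 0.26, adjusted p = 0.0152). Leaving out the third heat-shocked Q7 array gave -1.26 (adjusted p = 0.0511), centring -0.96 (adjusted p = 0.109) and the actin covariate -1.28 (adjusted p = 0.061).

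All 3 flux regulators fell in Q111 cells, and 2 of them in Q7 cells, against 28.2% and 18.1% of all genes. Among genes above background range 39.4% and 24.7% fell. The Q111 calls were all lost after centring and with the actin covariate. The Q7 calls held after centring but were lost with the covariate. Pdk1, which blocks the entry of pyruvate into the mitochondria, had 10.21, 10.20 and 9.79 in heat-shocked Q111 cells, against 11.06, 10.80 and 10.86 at 33 °C, and 7.66, 7.69 and 7.91 in heat-shocked Q7 cells, against 9.24, 9.48 and 10.35 at 33 °C. It fell by 0.84 in Q111 cells (adjusted p = 0.0165, and 0.053 without the third heat-shocked array or 0.0559 without the first array at 33 °C) and fell by 1.94 in Q7 cells (adjusted p = 0.000196). The difference of 1.09 between these effects did not pass the test (SE 0.35, adjusted p = 0.0995). The dimmer probe sets of Pdk1 had changes of -1.41, -0.97 and 1.04 in Q111 cells, and of -2.95, -0.88 and -0.23 in Q7 cells. Pfkfb3, which makes the activator fructose 2,6-bisphosphate, fell by 1.05 (adjusted p = 0.00352) and fell by 1.35 (adjusted p = 0.00114), in Q111 and Q7 cells in that order, whereas its other probe set, close to background range, had 0.41 and 0.20. Pfkfb4, a relative of Pfkfb3, fell by 0.88 in Q111 cells (adjusted p = 0.0125, and 0.0547 without the second array at 33 °C), with 0.05 in Q7 cells and a difference of -0.92 that did not pass (adjusted p = 0.151).

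The oxygen-sensitive factors and their regulators were mostly without a call. Hif1a levels lay between 11.25 and 12.41 on all 12 arrays, and neither heat shock change passed the test, at -0.21 in Q111 cells and 0.20 in Q7 cells. Its probe sets differed: a dimmer one, with a mean of 8.54, fell by 1.25 in Q111 cells (adjusted p over all probe sets 0.0209), and another, with a mean of 10.38, had -0.40 (0.11). Epas1 fell by 1.49 in Q111 cells (adjusted p = 0.00453), where the groups did not overlap, but the heat-shocked arrays lay in background range and its other probe set had 0.05. Set at the upper end of background range, those arrays give a fall of at least 1.68-fold, and other bounds written in this way were computed likewise. The hydroxylases Egln1 and Egln3 had changes of -0.06 and -0.23 in Q111 cells and 0.05 and 0.28 in Q7 cells, none past the threshold.

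Among the 9 other hypoxia targets, 2 rose and 2 fell in each line, against 20.0% and 28.2% of all genes in Q111 cells and 12.3% and 18.1% in Q7 cells. They had a median change of -0.06 in Q111 cells and 0.28 in Q7 cells, against -0.54 and -0.55 for the 12 enzymes, of which 0 rose and 7 fell in each; centring turned the enzymes' median to 0.19 in Q111 cells. Kdm3a, a histone H3 lysine 9 demethylase, had 11.28, 11.42 and 11.25 in heat-shocked Q111 cells, against 10.39, 10.41 and 10.52 at 33 °C, and 11.22, 11.37 and 11.44 in heat-shocked Q7 cells, against 10.12, 10.26 and 10.26 at 33 °C. The groups lay far apart in both lines, and Kdm3a rose by 0.88 (SE 0.12, adjusted p = 0.000174) and by 1.13 (SE 0.12, adjusted p = 5.66e-05). Vegfa, the angiogenic growth factor, had 9.86, 9.48 and 9.81 in heat-shocked Q111 cells, against 8.43, 9.03 and 8.88 at 33 °C, and 9.63, 9.70 and 9.50 in heat-shocked Q7 cells, against 8.79, 8.62 and 8.95 at 33 °C. It rose by 0.93 (adjusted p = 0.00146) and by 0.82 (adjusted p = 0.00466), again without overlap.

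The remaining hypoxia targets split. Car9, a carbonic anhydrase of acid export, fell by 1.12 in Q111 cells (adjusted p = 0.00117) and fell by 0.62 in Q7 cells (adjusted p = 0.0402), with all heat-shocked arrays, and the Q7 arrays at 33 °C, in background range, so that the Q111 fall is at least 1.58-fold. The Q7 call was lost without 4 of the 6 arrays of those groups, with adjusted p between 0.0551 (the second array at 33 °C) and 0.145 (the third at 33 °C). Ndrg1, a stress-response protein, fell by 0.62 in Q111 cells (adjusted p = 0.0357), a call lost without 5 of 6 arrays (adjusted p up to 0.112, without the second array at 33 °C), and had -0.61 in Q7 cells (adjusted p = 0.0531). Ankrd37 had changes of 0.97 and 0.86, in Q111 and Q7 cells in that order, which did not pass, though they did without the third heat-shocked Q111 array (1.40, adjusted p = 0.0114) and without the third Q7 array at 33 °C (1.24, adjusted p = 0.0474). Bnip3, a mitophagy receptor, had no call (0.05 and 0.32), but passed in Q7 cells without that same array (0.71, adjusted p = 0.0247).

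**Figure D2:**
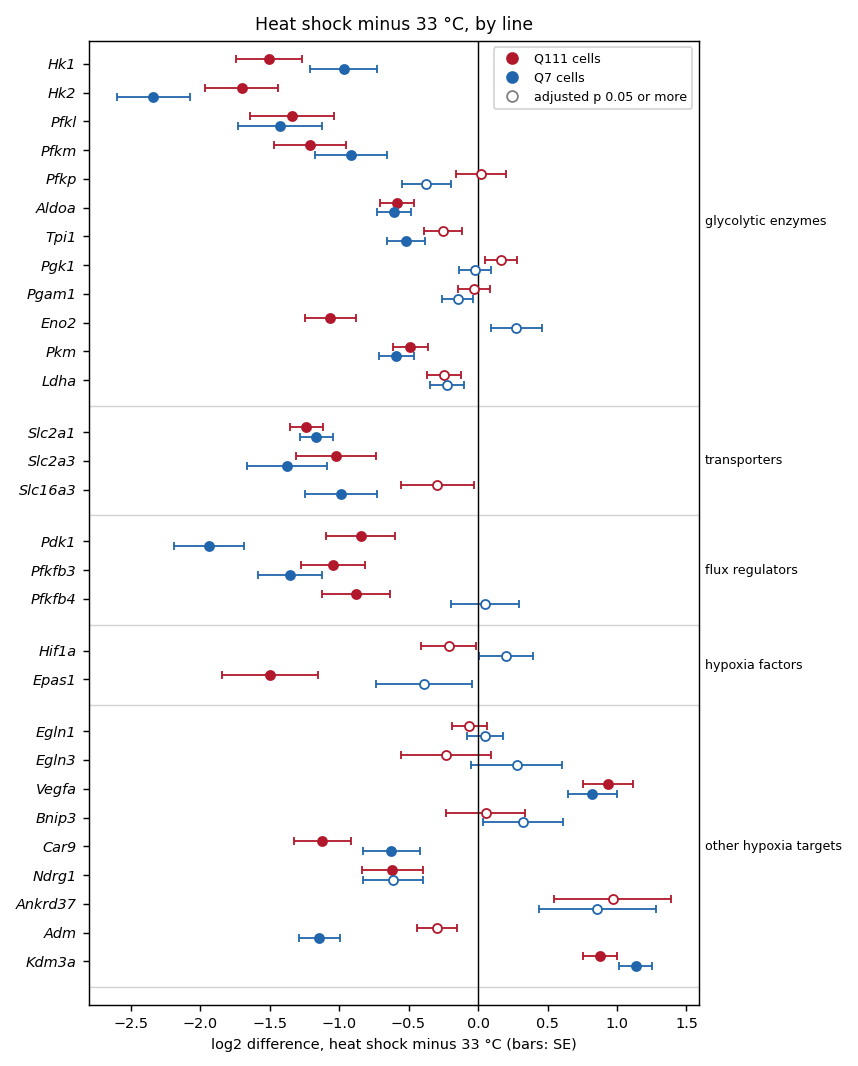
Log2 changes with heat shock of the 29 measured members in Q111 and Q7 cells, with bars for the SE; filled points passed at an adjusted p under 0.05 and open points did not. Most members lie left of 0, and Kdm3a and Vegfa lie right of it in both lines. After median centring 11 members were higher and 4 lower in Q111 cells, against 60.4% and 12.9% of all genes.

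Enzymes and other hypoxia targets thus had different medians in each scaling tried. Centred, the medians were 0.19 for the enzymes and 0.66 for the other targets in Q111 cells, and -0.20 and 0.63 in Q7 cells, so the enzymes' median changed sign in Q111 cells. With a further quantile normalization they were -0.59 and 0.02 in Q111 cells, and -0.57 and 0.36 in Q7 cells. With the actin covariate they were -0.46 and -0.05 in Q111 cells, and -0.31 and 0.14 in Q7 cells. These medians describe lists of 12 and 9 genes, and their difference was not tested.

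**Figure D3:**
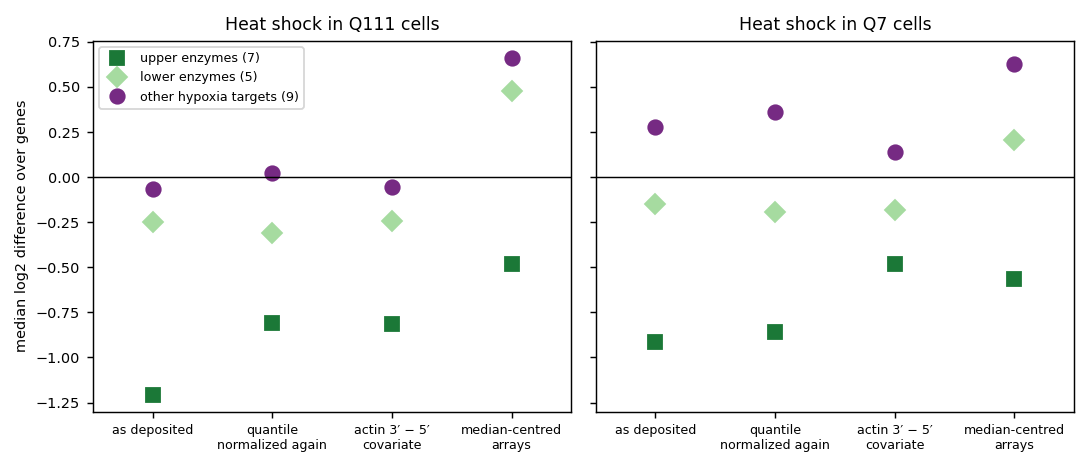
Median log2 change with heat shock in Q111 and Q7 cells, as deposited and under alternative settings. Points stand for the 7 early (upper) enzymes, the 5 late (lower) enzymes and the 9 other hypoxia targets. As deposited, the early enzymes lie at -1.21 and -0.91, in Q111 and Q7 cells in that order. The late enzymes lie at -0.25 and -0.15, and the other hypoxia targets at -0.06 and 0.28. After median centring the late enzymes change sign in both lines, and the early enzymes stay the lower.

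Of the members, 11 fell in both lines, 73.3% of the 15 in Q111 cells and 78.6% of the 14 in Q7 cells, against 51.3% and 79.9% of all genes that fell, and Vegfa and Kdm3a rose in both. The effects differed between the lines for Eno2 and Adm, 1 of 29 members in each direction, against 4.51% of all genes lower and 1.21% higher in Q111 cells relative to Q7 cells. Adm, the vasodilator peptide adrenomedullin, had 11.21, 11.42 and 11.30 in heat-shocked Q111 cells, against 11.81, 11.49 and 11.52 at 33 °C, and 8.57, 8.58 and 8.69 in heat-shocked Q7 cells, against 9.87, 9.87 and 9.52 at 33 °C. It fell by 1.14 in Q7 cells (SE 0.15, adjusted p = 0.000185) and had -0.30 in Q111 cells (SE 0.15, adjusted p = 0.114). The difference of 0.85 (SE 0.21, adjusted p = 0.0372) held in 4 of 12 leave-one-out fits, those without the first or the third heat-shocked Q111 array, the first Q111 array at 33 °C or the third Q7 array at 33 °C. In the other 8 the adjusted p ran up to 0.0942, without the first heat-shocked Q7 array. The call was also lost with further quantile normalization (0.73, adjusted p = 0.0714), the average of probe sets (0.80, 0.149) and the actin covariate (0.82, 0.114). Its other probe set gave 0.75 (adjusted p over all probe sets 0.416).

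At 33 °C 5 members were higher and 3 lower in Q111 cells, against 5.11% and 5.68% of all genes. Lower was 1 of 3 carriers, and higher were 1 of 3 flux regulators and 1 of 2 hypoxia factors. Of the 12 enzymes 1 was higher and 1 lower, and of the 9 other hypoxia targets 2 were higher and 1 lower. The arrays did not overlap for 7 members higher and 9 lower, against 12.9% and 14.2% of all genes. Other markers moved with the line: 4 of 6 neural progenitor markers, Sox2 among them, were lower in Q111 cells, with summed log2 levels of 37.8 to 39.8 in Q111 cells against 55.2 to 55.7 in Q7 cells, and 1 of 6 fibroblast markers was higher, with sums of 62.0 in Q111 cells against 56.2 to 56.9 in Q7 cells. Their part in the results was not tested. Slc2a3 had 6.85, 5.68 and 6.28 on the Q111 arrays, against 10.84, 10.25 and 10.03 on the Q7 arrays, a difference of -4.10 (SE 0.29, adjusted p = 2.53e-06) or 17.2-fold. All Q111 arrays lay more than 3 log2 units below all Q7 arrays. A second bright probe set of Slc2a3 gave -4.14 (adjusted p over all probe sets 2.99e-06), while 2 others, with means in background range, gave -0.50 (0.265) and -0.49 (0.0511). The average of all 4 gave -2.31, also past the threshold. Slc2a1, the other glucose carrier, had -0.32 (adjusted p = 0.134).

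Adm, Pdk1 and Car9 were higher in Q111 cells at 33 °C, and Egln3 lower. Adm lay 1.85 above Q7 (SE 0.15, adjusted p = 6.09e-06, 3.61-fold), with all Q111 arrays at 11.49 or above and all Q7 arrays at 9.87 or below, and its other probe set gave 2.08. Pdk1 was higher by 1.22 (adjusted p = 0.00719), and its dimmer probe sets gave 1.62, 0.97 and 0.26. Car9 was higher by 1.21 (adjusted p = 0.00207), at 6.04, 5.60 and 5.77 against 4.37, 4.42 and 4.99 in Q7 cells, where it lay in background range (at least 1.58-fold higher). Egln3, the hydroxylase that HIF itself induces, had 5.39, 5.48 and 5.16 on the Q111 arrays, close to background range, against 7.27, 6.99 and 7.88 on the Q7 arrays, a difference of -2.04 (SE 0.33, adjusted p = 0.00138). None of these 4 genes' groups overlapped, and their calls held in every setting tried.

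**Figure D4:**
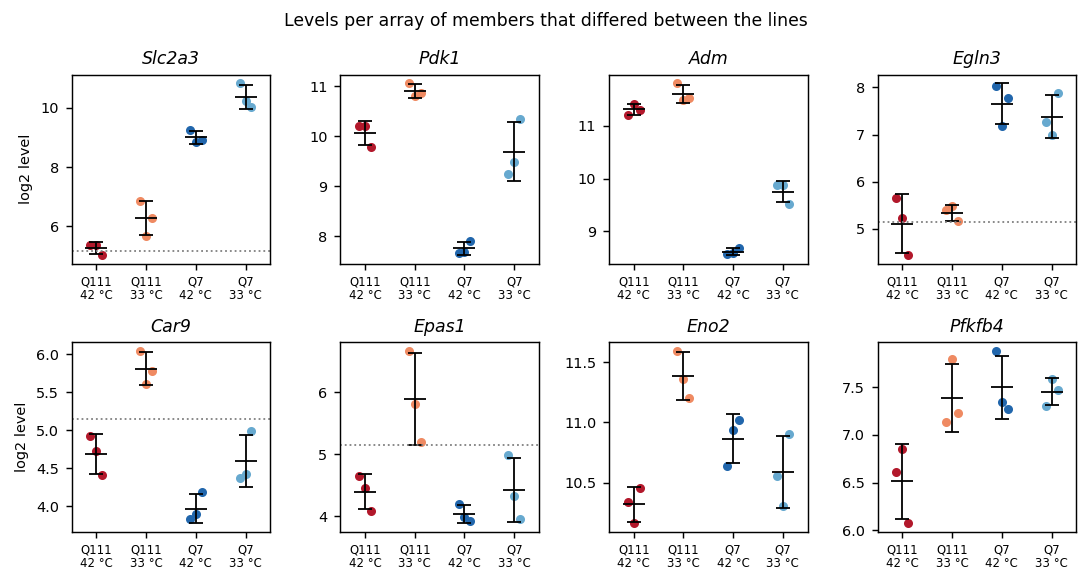
Log2 RMA levels on each array of members that differed between the lines, with bars for the mean ± SD (n = 3) and a dotted line at the bound of background range, 5.14; axes differ between panels. Slc2a3 and Egln3 are lower, and Adm and Pdk1 higher, on every Q111 array than on every Q7 array of the same temperature.

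The other calls at 33 °C were less firm. Eno2 was higher in Q111 cells by 0.79 (adjusted p = 0.0144), but not without the first Q111 array (0.69, adjusted p = 0.0642) or the second Q7 array (0.65, adjusted p = 0.0707). Epas1 was higher by 1.47 (adjusted p = 0.0165), but not without the first Q111 array (0.0529) or the second or the third Q7 array (0.0645 and 0.0708). All Q7 arrays of Epas1 lay in background range (at least 1.68-fold higher), and its other probe set gave 0.04. Hk2 was lower, at -1.05 (adjusted p = 0.0231), a call lost without the second or the third Q111 array (0.0633 and 0.0946) or the first or the second Q7 array (0.0976 and 0.0804). The number of members called higher fell to 3 without the first Q111 array or the second Q7 array. The untreated arrays of the lines deviated together by replicate number, and with that number as a block in these 6 arrays the members called lower numbered 6. This block also raised the calls among all genes, to 9.68% higher and 10.1% lower from 5.11% and 5.68%. The further member calls were Ankrd37 (-0.94, adjusted p = 0.00915), Hk1 (-0.54, 0.024), Slc16a3 (-0.88, 0.0245), Bnip3 (0.72, 0.037) and Hif1a (0.59, 0.045). Another Hif1a probe set was higher in Q111 cells by 0.90 without any block (adjusted p over all probe sets 0.0106). Without the third Q7 array, Bnip3 (1.11, adjusted p = 0.00504) and Ndrg1 (0.89, adjusted p = 0.0054) also passed.

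After heat shock 3 members were higher and 5 lower in Q111 than in Q7 cells, against 6.58% and 15.5% of all genes. The arrays did not overlap for 9 members higher and 9 lower, against 14.0% and 23.3% of all genes. Again 4 of 6 neural progenitor markers were lower, with sums of 37.6 to 39.1 in Q111 cells and 52.9 to 54.8 in Q7 cells. Higher in Q111 cells were 2 of 6 fibroblast markers (sums of 56.8 to 59.4, against 53.5 to 53.7 in Q7 cells) and 2 of 5 astrocyte markers (29.3 to 30.7, against 23.0 to 26.3), and the part of these markers was not tested. Slc2a3 had 5.35, 5.38 and 5.02 on the Q111 arrays, about the bound of background range, against 9.25, 8.83 and 8.92 on the Q7 arrays, a difference of -3.75 (adjusted p = 7.03e-06). Adm was higher by 2.70 (SE 0.15, adjusted p = 5.24e-07, 6.49-fold) and Pdk1 by 2.31 (SE 0.25, adjusted p = 7.7e-05, 4.97-fold). Egln3 was lower, at -2.54 (adjusted p = 0.000259). Its Q111 mean lay in background range, as did 1 of its 3 Q111 arrays and 1 of the 3 of Slc2a3, so the sizes of these differences are uncertain. These 4 calls, Slc2a3 included, held in every setting tried, and their groups did not overlap. Hk1 was lower, at -1.07 (adjusted p = 0.00776, but -0.66 and 0.0608 with further quantile normalization), as was Pfkfb4, at -0.98 (adjusted p = 0.0139, and 0.0651 without the first Q7 array, when 3 members were lower). Slc2a1 was lower, at -0.39 (adjusted p = 0.0358), and Car9 higher by 0.72 (adjusted p = 0.0281), each in 2 of 6 leave-one-out fits, and Car9 lay in background range in both groups. Without the first Q7 array these had adjusted p of 0.117 and 0.104, and centring took Slc2a1 to -0.01. Pdk1, Car9 and Adm were higher in Q111 cells at both temperatures, and Slc2a3 and Egln3 lower at both.

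**Figure D5:**
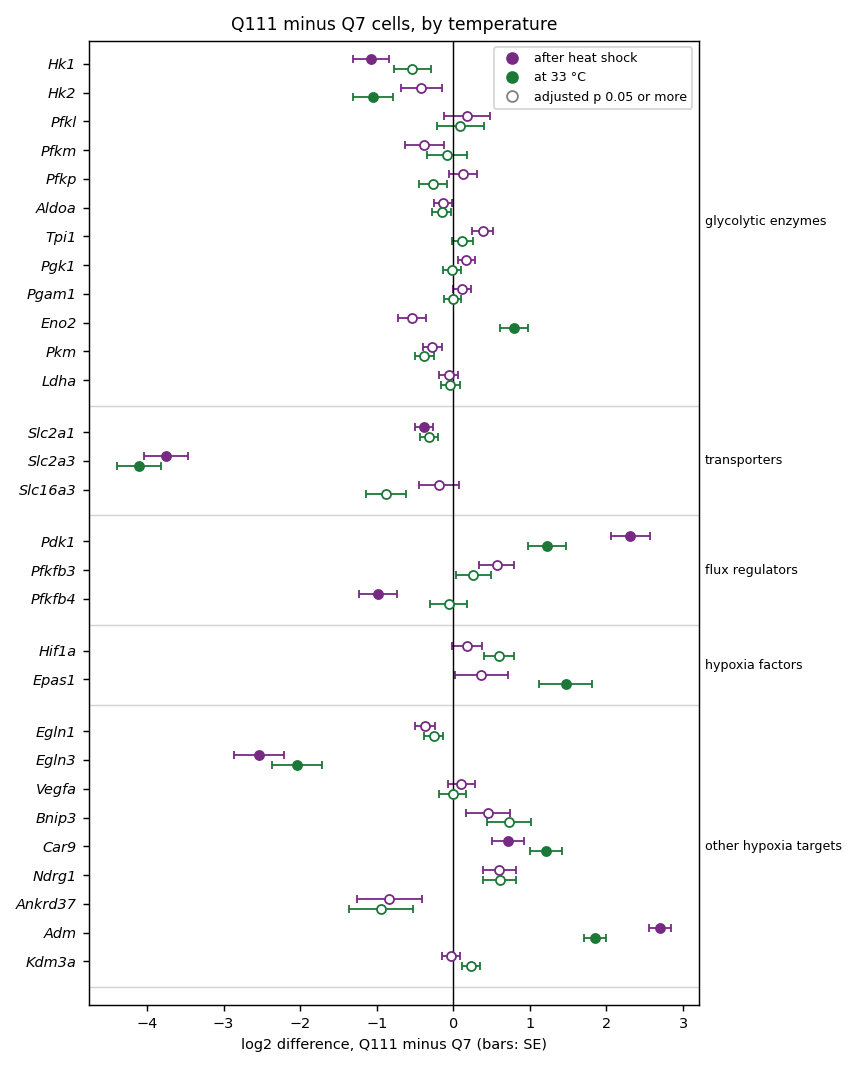
Log2 differences of Q111 minus Q7 for the 29 measured members at 33 °C and after heat shock, with bars for the SE; filled points passed at an adjusted p under 0.05 and open points did not. Slc2a3 lies at -4.10 and -3.75, and Adm at 1.85 and 2.70.

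Of 90 further genes of these pathways, 81 were measured. On the deposited scale, heat shock raised 19 and lowered 30 in Q111 cells, against 20.0% and 28.2% of all genes, and raised 10 and lowered 27 in Q7 cells, against 12.3% and 18.1%. The shares raised, 19 and 10 of 81, were near those of all genes. Of the 81, 74 had means above background range, where 39.4% of genes fell in Q111 cells and 24.7% in Q7 cells. The share lowered in Q111 cells, 30 of 81, was near that 39.4%. In the pentose phosphate branch, which yields NADPH and ribose, 4 of 7 fell and 1 rose in Q111 cells. In Q7 cells 5 of 7 fell and 1 rose. All 7 had means above background range, where 39.4% and 24.7% of genes fell. The gene that rose was Rpe, the ribulose phosphate epimerase, by 1.60 in Q111 cells (adjusted p = 3.26e-05) and by 2.15 in Q7 cells (adjusted p = 1.11e-05). Among oxygen-sensing genes and HIF partners 7 of 9 fell in Q111 cells and 3 of 9 in Q7 cells, all with means above background range, where 39.4% and 24.7% of all genes fell. Arnt2, a partner subunit of HIF, fell by 2.13 in Q7 cells (adjusted p = 0.000114).

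Pyruvate dehydrogenase kinases, which like Pdk1 close the route to the mitochondria, did not move together. In Q111 cells Pdk4 rose by 1.64 (adjusted p = 0.00154) and Pdk2 fell at least 4.32-fold (adjusted p = 2.76e-05), into background range on all heat-shocked arrays. The heat shock effects on Pdk2 and on Zfp395, a zinc finger protein, were lower in Q111 than in Q7 cells, with differences of -1.93 (adjusted p = 0.0392, with Pdk2 in background range in heat-shocked Q111 cells) and -1.79 (adjusted p = 0.0243). Between the lines at 33 °C 6 were higher and 13 lower in Q111 cells, against 5.11% and 5.68% of all genes. Angptl4, a lipase inhibitor, was higher by 3.38 (adjusted p = 2.19e-05) and Car12, a carbonic anhydrase, by 2.31 (adjusted p = 0.000711), while Pdgfb, a growth factor, was in background range on all Q111 arrays and at least 3.91-fold lower (adjusted p = 1.45e-06), and Pdk4 lower, at -2.37 (adjusted p = 0.000359). After heat shock 9 of the 81 were higher and 16 lower in Q111 cells, against 6.58% and 15.5% of all genes. Above background range these shares were 7.6% and 22.0%, and the number lower, 16 of 81, was near the latter. Angptl4 was again higher, by 2.90 (adjusted p = 7.78e-05), and Pdgfb again lower, by at least 6.47-fold (adjusted p = 4.08e-07).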

How the data were processed

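RNA of 12 samples was measured on Affymetrix mouse arrays. The authors deposited 1 log2 value for each probe set, made with RMA, per the submitters' processing notes. RMA corrects background, normalizes quantiles and summarizes probes. For its version and chip definition, the entry is: not given in the sources used here. Total RNA was column-purified, per the labels' protocols. Quantiles of single arrays differed from the mean by up to 0.49, so other scalings were tried. Depth does not apply to arrays, and their number limits precision.

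Of 45101 probe sets, 34945 named 1 gene after removal of 64 controls, 932 named several and 9160 are unnamed here. Symbols were updated through gene identifiers, of which 34741 matched. The brightest probe set stood for each of 18193 genes, and levels of different probe sets were not compared as amounts of RNA. Of the measured members, 17 had more than 1 probe set, and 3 (Slc16a3, Epas1, Car9) had a mean in background range.

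limma 3.58.1 (R 4.3.3) was fitted with a mean for each of the 4 groups on all 12 arrays, leaving 8 residual degrees of freedom. The 5 contrasts were tested two-sided, p-values were adjusted by Benjamini-Hochberg over the whole table, and a gene was called where the adjusted p was below 0.05. The procedure was tested on simulated data. The members, the wider lists and the markers were chosen with earlier results of these data known. All members are named; of the wider lists, up to 2 genes higher and 2 lower with the largest changes per comparison. The alternatives tried were averaging a gene's probe sets, median centring, further quantile normalization, bright genes only, a variance trend, only the groups compared, a replicate block, the actin difference as a covariate, and leaving out each array.

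The labels give the replicate numbers. Deviations from group means correlated between same-numbered untreated arrays of the lines (r = 0.516, 0.402 and 0.577), and not between other groups throughout. Pairing of the untreated arrays was therefore tried as an alternative, and the main fit, which gave the calls above, used no block. No 2 arrays of a group were near-identical (SD of differences 0.358 to 0.845), and the third heat-shocked Q111 array stood most apart in its group.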

Additional observations from a re-analysis of the deposited data

Results flagged for a closer look

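The heat shock effect differed between the lines for 2 of the 29 measured members (6.9%) by the test of the difference itself. This share was near the 5.72% of all genes. For Eno2 the effect in Q111 cells minus that in Q7 cells was -1.34 on the log2 scale. For Adm it was 0.85. Neither call held with the actin covariate. The Eno2 call was also lost after centring and held in 11 of 12 leave-one-out fits, and the Adm call held in 4 of 12.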

How the results depend on the processing

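Of 2189 comparisons of a gene under an alternative, 2027 stayed on the same side of the threshold, 105 lost a call, 49 gained one and 8 reversed. The 2027 include genes without a call, and a change of sign where neither fit passed was counted among them. Of the falls called with heat shock, 3 of 15 in Q111 cells and 0 of 14 in Q7 cells passed in every setting. The 8 reversals came from centring the arrays in Q111 cells after heat shock, by construction a shift of all genes: Aldoa 0.14, Tpi1 0.47, Pgam1 0.70, Pkm 0.24, Ldha 0.48, Egln1 0.66, Ndrg1 0.11 and Adm 0.43. Centring also gave 11 members higher and 4 lower with heat shock in Q111 cells, against 60.4% and 12.9% of all genes. In Q7 cells it gave 8 lower, against 11.3%. For the difference of effects it gave 2 higher and 0 lower, against 4.24% and 2.59%. Between the lines after heat shock it gave 8 of 29 higher, near the 25.1% of all genes. Among all genes called, the share higher moved to 82.5% in Q111 cells (41.5% as deposited) and 70.1% in Q7 cells (40.4%). It moved to 62.1% for the difference (21.2%) and 72.6% between the lines after heat shock (29.8%). The actin covariate left 5 lower in Q111 cells, against 16.4% of all genes, and 0 lower and 1 higher in Q7 cells, against 1.01% and 1.39%. For the difference it left 0 in each direction, against 0.495% higher and 1.74% lower. For the difference, the mean of all probe sets and the replicate block over all 12 arrays each gave 0 higher (Adm at an adjusted p of 0.0542 with the block). At 33 °C, bright genes only gave 3 higher, against 6.76% of the genes fitted. A variance trend and the replicate block in the 6 untreated arrays each gave 6 lower, against 6.11% and 10.1% of all genes. After heat shock a variance trend gave 5 higher and 8 lower, against 7.1% and 15.9% of all genes. Only the groups compared gave 3 lower, against 10.7%. The cause of these shifts was not tested. Leaving out 1 array gave 2 to 3 members higher and 13 to 14 lower in Q111 cells, 2 to 4 higher (4 without the third Q7 array at 33 °C) and 11 to 16 lower in Q7 cells, 0 to 1 in each direction for the difference, 3 to 6 higher and 2 to 3 lower at 33 °C, and 2 to 4 higher and 3 to 5 lower after heat shock. The replicate block changed no other call count by over 1.5 times. Levels near background range limit Slc2a3 and Egln3 in Q111 cells and Epas1, Car9 and Slc16a3 throughout.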
